A study of Mus musculus with 7 samples.

Results

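The genes described here are 8 components of the signalling route from phosphoinositide 3-kinase (PI3K) through the kinase AKT to the mechanistic target of rapamycin (mTOR): *Pdpk1*, *Akt1*, *Akt2*, *Tsc1*, *Tsc2*, *Rheb*, *Mtor* and *Rptor*. They were picked by gene symbol as a set that controls follicle activation and oocyte growth, and all 8 were found among the 22877 genes of the table. Their mRNA levels were compared between oocytes that lack *Mfn1*, which encodes the mitochondrial fusion protein mitofusin 1, and wild type (WT) oocytes. The comparison bears on how the oocyte transcriptome differs once this fusion protein is lost.

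PI3K is activated by receptors such as KIT and makes a membrane lipid that brings PDK1 (the product of *Pdpk1*) and AKT together, so that PDK1 can phosphorylate AKT. AKT phosphorylates and restrains the TSC1 and TSC2 complex, which otherwise keeps the small GTPase RHEB inactive, and active RHEB switches on mTOR in the complex that RPTOR assembles (mTORC1). In the ovary this route governs the activation of primordial follicles and the growth of the oocyte. It is regulated mostly by phosphorylation, which RNA sequencing does not measure.

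RNA was sequenced from oocytes enclosed in secondary follicles of 8-week-old C57BL/6 females, with 5 oocytes pooled in each library. The 3 *Mfn1*-/- libraries came from mice with floxed *Mfn1* alleles and Cre recombinase under the oocyte promoter of *Zp3*, which is active only once the follicle has begun to grow, so that the earliest follicle stages still had the gene. The 4 libraries of the control group came from WT females, and the sources used here do not say which animals gave which library. The labels list these 7 libraries, whereas the methods give 3 samples for each genotype.

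The values are the authors' mean normalized counts, 1 mean for each genotype and gene. No value of a single library was used here, so the spread between replicates and the depth of each library are unknown, no test of the genotypes could be made on these genes, and every difference below is a description of these libraries. Fold changes are given as the log2 ratio of the *Mfn1*-/- mean over the WT mean after 0.1 was added to each. Where a pair of means stands beside a gene without naming the genotypes, the *Mfn1*-/- mean comes first. In such pooled material, fewer cells of a type and less RNA per cell cannot be told apart.

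*Mfn1* itself, the targeted gene, had a mean of 0.0577 in *Mfn1*-/- oocytes against 0.616 in WT, lower in the knockout as the labels state. All 12 oocyte markers on a list used as a check were measured. Their means were 2.74 to 1310 in *Mfn1*-/- oocytes against 1.51 to 1120 in WT. Of these markers 11 were higher in *Mfn1*-/-, beside 65.4% of all genes with a mean of at least 1. The 12 granulosa cell markers measured summed to 3.24 in *Mfn1*-/- oocytes against 3.53 in WT, led by *Inha* (1.87 and 0.954) and *Esr2* (0.929 and 1.86). Of these markers 3 were higher and 9 lower, beside 56.7% higher among all genes of the table. The 5 theca and stroma markers measured summed to 0.21 in each genotype. The macrophage marker *Cd68* had means of 7.58 and 0.672. The other 4 immune and blood markers of the list, among them *Ptprc* and *Adgre1*, had no values under the names looked up. *Cd68* thus stands alone for this group. The part of these cells in the differences below was not tested.

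The 8 genes had low to moderate mRNA levels, and the genotypes were close. *Rheb* stood at the top with a mean of 2.58 over the 7 libraries, followed by *Akt1* (0.921), *Tsc2* (0.519), *Pdpk1* (0.395), *Tsc1* (0.248), *Mtor* (0.157), *Akt2* (0.122) and *Rptor* (0.0369). This order was identical in both genotypes. The closest neighbours in it were *Mtor* and *Akt2*, and because no spread over libraries is known, it cannot be said which neighbours differ beyond it. Among all genes of the table, *Rheb* stood at percentile 82.6 of level, *Akt1* at 71.8, *Mtor* at 46.7 and *Rptor* at 24.3. Only *Rheb* reached a mean of 1, and *Rptor* alone lay under 0.1. The lowest mean in the table is 0.01, given to 937 genes in *Mfn1*-/- oocytes against 922 in WT, so *Rptor* was the gene closest to that lower limit.

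**Figure D1:**
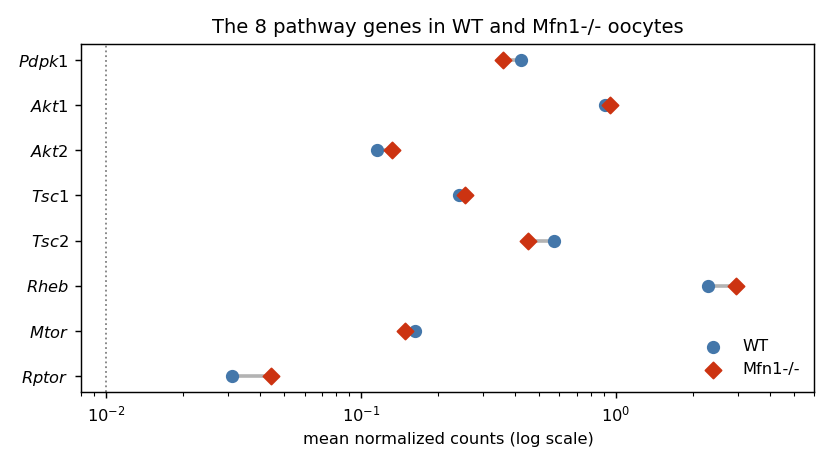
Authors' mean normalized counts of the 8 pathway genes on a log axis, with 1 point for each genotype (circles WT, diamonds Mfn1-/-) and no error bars because values of single libraries were not used; the dotted line is the lowest mean in the table, 0.01. The order of the genes is the same in both genotypes, from Rheb (2.95 in Mfn1-/- and 2.3 in WT) down to Rptor (0.0445 and 0.0312).

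Of the 8 genes, 5 had a higher and 3 a lower mean in *Mfn1*-/- than in WT oocytes. The ratio of the *Mfn1*-/- to the WT mean lay between 0.793 (*Tsc2*) and 1.43 (*Rptor*), and the median log2 fold change of the 8 was 0.057. None of the 7 genes whose mean reached 0.1 differed 2-fold or more in either direction, against 11.5% of the 13830 genes with such a mean, and none differed 1.5-fold or more, against 27.0%. With only 7 genes, little can be read from counts of 0 beside those shares. The table as a whole leaned toward *Mfn1*-/-. Of the genes whose mean reached 0.1, 59.9% were higher and the median log2 fold change was 0.11, and of the 6226 genes whose mean reached 1, 65.4% were higher and the median was 0.16. After the 0.16 was subtracted, only *Rheb* of the 8 genes remained above 0, at 0.19, and the median of the 8 was -0.10. That offset comes from genes with a mean of at least 1, which only *Rheb* of the 8 reached. For each of the 8, the median of genes of like level was lower than 0.16, from 0.019 (*Rptor*) to 0.13 (*Rheb*). When both genotypes were scaled to the same sum, *Rheb*, *Akt2* and *Rptor* were higher and the other 5 genes lower, with a median of -0.049.

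**Figure D2:**
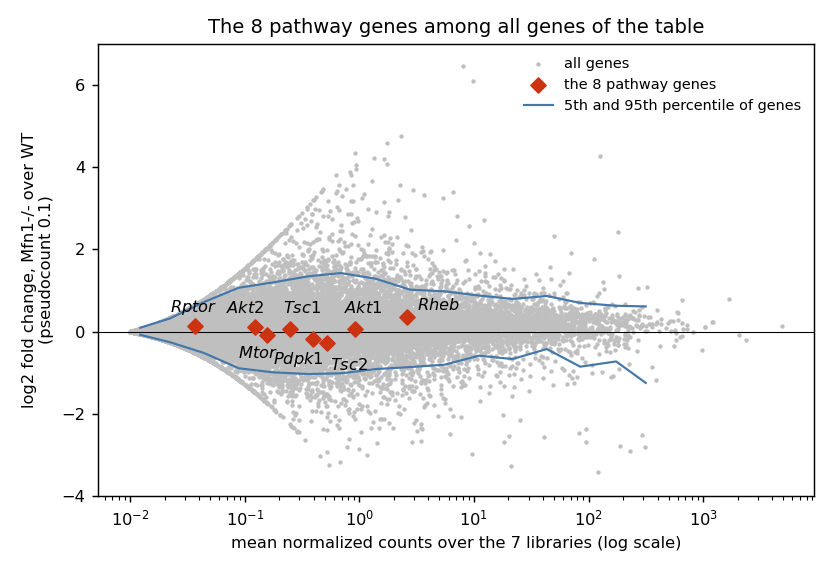
Each grey point is 1 gene of the table, with its mean over the 7 libraries on the horizontal log axis and its log2 fold change, Mfn1-/- over WT with 0.1 added, on the vertical axis; the lines are the 5th and 95th percentiles of genes at each level. The 8 pathway genes (diamonds) lie between the lines, from -0.28 for Tsc2 to 0.35 for Rheb.

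*Pdpk1* (GRCm38, chr17:24073680-24150924, minus strand) encodes PDK1, the kinase that activates AKT. Its mean was 0.36 in *Mfn1*-/- oocytes against 0.422 in WT, a log2 fold change of -0.18. Among the 4457 genes within 2-fold of its level, this was percentile 29.2, inside the range from -1.02 (5th percentile) to 1.38 (95th). It was lower in *Mfn1*-/- under every scaling tried, down to -0.34 after the median was subtracted.

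*Akt1* (chr12:112653821-112674884, minus strand) encodes the AKT kinase known chiefly for growth and survival, and its means were 0.944 in *Mfn1*-/- oocytes against 0.904 in WT. The log2 fold change of 0.056 was percentile 44.7 of the 3851 genes of like level. Its sign depended on the scaling, with -0.10 after the median was subtracted and -0.062 at equal sums.

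*Akt2* (chr7:27591552-27640826, plus strand) encodes the AKT kinase known chiefly for the response to insulin. Its mean was 0.132 in *Mfn1*-/- oocytes against 0.115 in WT, a log2 fold change of 0.11, at percentile 56.2 of the 4975 genes of like level. After the median was subtracted the value was -0.049. *Akt1* thus had the higher level of the pair in both genotypes.

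*Akt2* has a near-identical copy in the mouse genome, the processed pseudogene *Akt2-ps* (chr11:16514533-16515981, plus strand), which is named here after its values were seen. The pseudogene matches the whole coding sequence of *Akt2*, 1446 bases, with 98.6% identity, 17 mismatched bases and 3 gap columns over 1449 aligned columns. Reads were 75 bases long, and of the 1372 stretches of 75 bases in the *Akt2* coding sequence 452 (32.9%) also occur in *Akt2-ps*. Over the whole *Akt2* transcript this is 452 of 4470 stretches (10.1%). The 75 bases in which the copies differ most are shown first, with capitals at the mismatched bases. They are followed by 75 bases from the longest run identical in both, where a read cannot be assigned by its own sequence. Reads were paired, so a mate outside the run could still tell the copies apart. The sequences are from the GENCODE M21 transcripts, 5′ to 3′, and positions are counted from the first base of the *Akt2* coding sequence or of the *Akt2-ps* transcript.
Akt2, bases 1147 to 1221: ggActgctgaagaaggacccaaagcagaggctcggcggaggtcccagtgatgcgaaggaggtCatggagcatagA
Akt2-ps, bases 1150 to 1224: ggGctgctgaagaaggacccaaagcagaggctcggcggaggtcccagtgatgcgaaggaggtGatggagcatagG
Akt2 and Akt2-ps, bases 766 to 840 of Akt2: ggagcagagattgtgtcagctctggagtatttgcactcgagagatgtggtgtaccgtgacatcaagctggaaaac

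The table lists *Akt2-ps* above *Akt2*, with a mean of 0.788 in *Mfn1*-/- oocytes against 0.513 in WT and a log2 fold change of 0.53. How the authors' counting treated reads that fit both is not given in the sources used here, so the level of *Akt2* is uncertain. When both genes were joined with their transcript lengths as weights, the means were 0.383 in *Mfn1*-/- oocytes against 0.279 in WT, a ratio of 1.38 and a log2 fold change of 0.35, and *Akt2-ps* made up 65.6% of the joined signal in *Mfn1*-/- oocytes against 58.7% in WT. In the joined form *Akt2* would stand above *Tsc1* rather than below *Mtor* in the order of levels. It would then be above *Pdpk1* in *Mfn1*-/- oocytes (0.36) and below it in WT (0.422), so the order would differ between the genotypes. The other 7 genes shared no stretch of 75 bases on the same strand with another gene of the annotation. *Akt1* was 77.8% identical to *Akt2* over the aligned coding sequence.

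*Tsc1* (chr2:28641228-28691167, plus strand) encodes the subunit that stabilises the TSC complex, and *Tsc2* (chr17:24595816-24632630, minus strand) encodes the subunit that inactivates RHEB. *Tsc1* had a mean of 0.256 in *Mfn1*-/- oocytes against 0.242 in WT. Its log2 fold change of 0.058 was percentile 49.4 of the 4726 genes of like level, and it was -0.10 after the median was subtracted and -0.036 at equal sums. *Tsc2* had a mean of 0.452 in *Mfn1*-/- oocytes against 0.57 in WT, and its log2 fold change of -0.28 was the lowest of the 8 genes. This was percentile 22.4 of the 4228 genes of like level. The partners of the complex thus had values of opposite sign as deposited and both below 0 under either rescaling. The end of *Tsc2* overlaps *Pkd1* on the opposite strand, and 619 of its 6192 stretches of 75 bases occur in *Pkd1* in antisense. The libraries do not mark strand, so reads from that stretch cannot be told apart. *Pkd1* had means of 0.0411 in *Mfn1*-/- oocytes against 0.0271 in WT, and its part in the value of *Tsc2* was not tested.

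*Rheb* (chr5:24802823-24842624, minus strand), which encodes the GTPase that activates mTORC1, had a mean of 2.95 in *Mfn1*-/- oocytes against 2.3 in WT. Its log2 fold change of 0.35 was the highest of the 8 genes with 0.1 added to each mean, and it was above 0 under every scaling tried (0.19 after the median was subtracted, 0.22 at equal sums). Among the 2833 genes of like level it was at percentile 68.7, where the 95th was 1.14. *Rhebl1* (chr15:98877778-98894540, minus strand), the gene of the closely related GTPase RHEB-like 1, had a higher level than *Rheb* in both genotypes, with a mean of 8.21 in *Mfn1*-/- oocytes against 3.83 in WT, a log2 fold change of 1.08. *Rheb* and *Rhebl1* shared no stretch of 75 bases, but *Rhebl1* overlaps *Dhh* on its own strand, and how reads in the overlap were counted is not given in the sources used here. The third subunit of the TSC complex, *Tbc1d7*, had means of 1.59 and 1.81.

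*Mtor* (chr4:148448611-148557683, plus strand), which encodes the kinase of both mTOR complexes, had a mean of 0.149 in *Mfn1*-/- oocytes against 0.163 in WT, a log2 fold change of -0.079. This was percentile 39.6 of the 4962 genes of like level. *Rptor* (chr11:119602905-119899576, plus strand), which encodes the scaffold that brings substrates to mTOR in mTORC1, had a mean of 0.0445 in *Mfn1*-/- oocytes against 0.0312 in WT. Its ratio of 1.43 was the highest of the 8 genes, but its level was the lowest, and the log2 fold change was 0.14 with 0.1 added and 0.51 with nothing added. Subtracting the 0.01 that is the lowest mean of the table, an alternative chosen after seeing the data, gave 0.70, past 1.5-fold, whereas subtracting the median gave -0.020. With 0.1 added it was at percentile 68.0 of the 5021 genes of like level, whose 95th percentile was 0.63. *Rptor* lies in antisense to *Rptoros*, and 14 of its 6520 stretches of 75 bases (0.215%) were shared with a gene on the opposite strand. *Rictor*, the scaffold of the other mTOR complex (mTORC2), had means of 0.558 in *Mfn1*-/- oocytes against 0.659 in WT.

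A comparison of levels between genes requires values per length. How the counts were normalized is not given in the sources used here, so this was examined on 15568 protein-coding genes in 10 groups by the length of the longest coding transcript. From the shortest to the longest group the median length increased 9.22-fold, from 887 to 8174 bases. The smallest steps above the lowest mean, taken as the 2nd percentile after 0.01 was subtracted, decreased from 0.00318 to 0.0003 in *Mfn1*-/- (10.6-fold) and from 0.0025 to 0.0003 in WT (8.33-fold). The values thus scaled as they would if divided by transcript length, and the order of the 8 genes is read here as one per length. The 8 genes were also ranked among genes of like length, within 1.2-fold. *Tsc2* (percentile 81.7 of 1737 genes), *Pdpk1* (79.5 of 1381), *Tsc1* (70.7 of 1193) and *Mtor* (61.5 of 893) are long transcripts of 6266 to 8564 bases and stood above the median of genes of their length. *Rheb*, at 1784 bases the shortest, was at percentile 69.4 of 2438 genes, and *Akt1* was at 67.7 of 3292. *Akt2* (44.8 of 2919) and *Rptor* (32.5 of 1601) stood below the median. Joined with *Akt2-ps*, *Akt2* had means (0.383 in *Mfn1*-/- and 0.279 in WT) over the median of its length, 0.157.

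**Figure D3:**
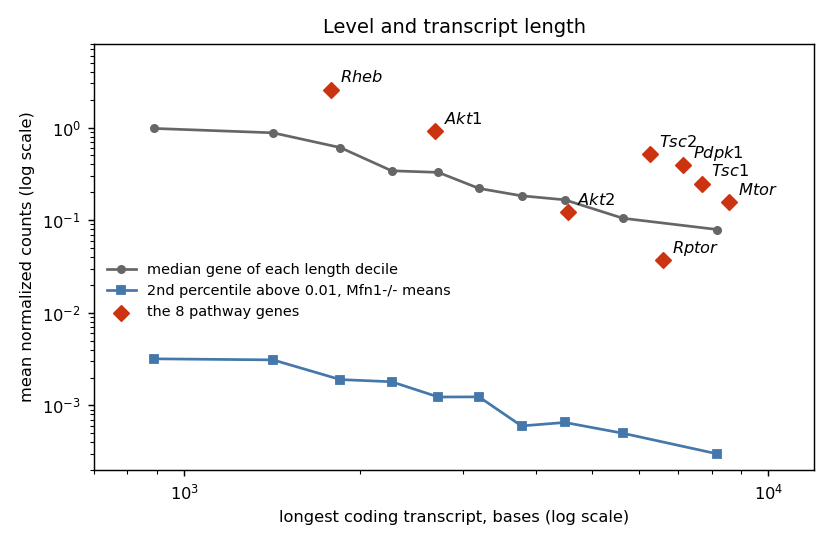
Mean normalized counts against the length of the longest coding transcript, both on log axes: diamonds are the 8 pathway genes, circles the median gene of each of 10 length groups, and squares the 2nd percentile of the Mfn1-/- means after 0.01 was subtracted. Both lines go down with length, the median gene from 0.98 to 0.0793, and 6 of the 8 genes lie above the median of genes of their length.

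The 8 genes belong to a list of 103 genes of the pathway, ordered in 11 groups by role. Of these, 97 had values, 70 had a mean of at least 0.1 and 25 a mean of at least 1. Of the 25, 19 were higher and 6 lower in *Mfn1*-/- than in WT oocytes, beside 65.4% higher among all genes with such a mean. The median log2 fold change of the 25 was 0.26, beside 0.16 over all genes with such a mean. After the median of all genes with such a mean was subtracted, 15 of the 25 were higher. That subtraction by construction leaves as many of all such genes above 0 as below. At equal sums 16 of the 25 were higher, a scale at which no share of all genes was counted. *Eif4ebp1* and *Rhebl1* were 2-fold or more higher, 2 of 25, against 5.49% of all genes with a mean of at least 1. With a mean of at least 0.1, *Ddit4l* and *Sesn2*, named after their values were seen, joined them, 4 of 70, against 7.27% of such genes. *Sesn2* reached that minimum through the *Mfn1*-/- libraries, its WT mean being under 0.1. Of the list, 0 of 25 and 0 of 70 genes were 2-fold or more lower, against 3.24% and 4.24% of all genes with such means. The counts of genes 2-fold or more higher are near the share among all genes. With lists of this size little can be read from the counts of 0. The median log2 fold change of the 70, which include 7 of the 8 genes, was 0.057, beside 0.11 over all genes with such a mean. Without those 7 it was 0.065 over 63 genes.

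**Figure D4:**
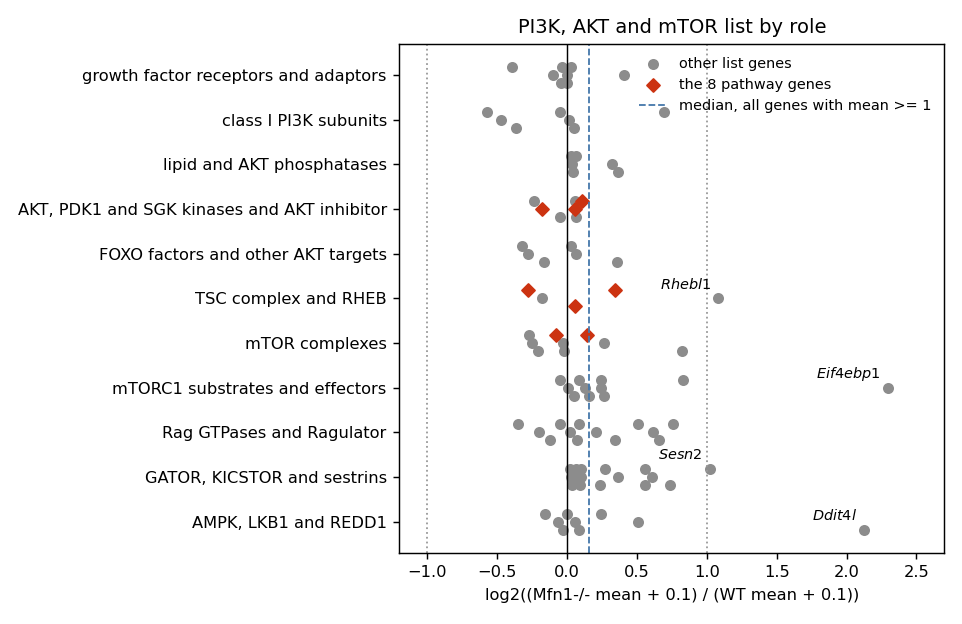
Log2 fold change, Mfn1-/- over WT with 0.1 added, of the 97 pathway genes with values, 1 point for each gene and 1 row for each role; diamonds are the 8 pathway genes described here, the dashed line is the median of all genes with a mean of at least 1, 0.16, and the dotted lines mark 2-fold. The 8 genes cluster around 0, and the points furthest to the right are Eif4ebp1 (2.29) and Ddit4l (2.13).

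Upstream of the 8 genes, 2 of 8 receptors and adaptors had a mean of at least 0.1. *Kit*, which encodes the receptor of the oocyte for KIT ligand, had the highest level among them, with a mean of 0.679 in *Mfn1*-/- oocytes against 0.922 in WT and a log2 fold change of -0.39. Among the PI3K subunits, the catalytic subunit gene *Pik3cd* had the highest level (1.85 and 1.83), *Pik3ca* had means of 0.18 and 0.26, and of the regulatory subunit genes *Pik3r1* (0.331 and 0.499) and *Pik3r3* (0.183 and 0.322) were lower and *Pik3r2* (0.791 and 0.45) was higher. Of the 7 PI3K subunit genes with values 3 were higher as deposited, beside 56.7% of all genes, and 1 was under either rescaling. The share of all genes after rescaling was not counted, so the rescaled counts of each role group stand without one. The 0.16 subtracted was above 0.037, the median of all genes with no minimum mean, so the subtraction lowers the share for all genes too. In the group of *Pdpk1*, *Akt1* and *Akt2*, 4 of 7 genes were higher as deposited, near the share among all genes, 2 at equal sums and 0 after the median was subtracted.

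Among the targets of AKT, *Foxo3*, the transcription factor that holds primordial follicles dormant, had means of 0.277 in *Mfn1*-/- oocytes against 0.323 in WT, and *Foxo1* had means of 0.931 and 1.19. In the mTOR complexes, to which *Mtor* and *Rptor* belong, 3 of 9 genes were higher as deposited, beside 56.7% of all genes of the table. At equal sums 3 of the 9 were higher and after the median was subtracted 2, with no share of all genes counted. The shared subunit gene *Mlst8* had the highest fold change of them, with means of 1.16 and 0.612, and *Akt1s1*, which encodes the mTORC1 inhibitor PRAS40, had the highest level, with means of 2.89 and 2.39.

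Downstream of mTORC1, 10 of 11 substrates and effectors were higher as deposited, beside 56.7% of all genes of the table. At equal sums 7 of the 11 were higher and after the median was subtracted 5, with no share of all genes counted. *Eif4ebp1* (chr8:27260329-27276674, plus strand), which encodes a repressor of cap-dependent translation that mTORC1 switches off, had a mean of 2.92 in *Mfn1*-/- oocytes against 0.516 in WT, a log2 fold change of 2.29 and the highest of the list. It reached a mean of 1 only through the *Mfn1*-/- libraries. The S6 kinase genes *Rps6kb1* (1.02 and 0.848) and *Rps6kb2* (2.07 and 1.12) were higher by 0.24 and 0.83 on the log2 scale, their target *Rps6* had means of 18.3 and 16.7, and *Eif4b* had means of 2.19 and 2.27.

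The amino acid branch that brings mTORC1 to the lysosome held the gene with the highest level of the list, *Rraga*, but its levels ranged widely. Of its 13 Rag GTPase and Ragulator genes, 7 had a mean of at least 1, beside 25 of the 97 list genes with values. *Rraga*, which encodes the GTPase RagA, had means of 101 in *Mfn1*-/- oocytes against 79.5 in WT, and in the Ragulator complex *Lamtor1* (8.71 and 5.1) and *Lamtor5* (23.4 and 26.9) differed in opposite directions. The GATOR and KICSTOR complexes and the sestrins regulate this branch, but not all of their genes restrain it. Of the genes of this group, with *Castor1* and *Castor2* included, 16 of 16 were higher as deposited, beside 56.7% of all genes of the table. At equal sums 12 of the 16 genes were higher and after the median was subtracted 8, with no share of all genes counted. *Nprl2* had the highest level of them (39.5 and 30.7). Of those with a mean of at least 1, *Castor1* (5.65 and 3.8) had the highest fold change and *Sec13* (19.6 and 16.6) the lowest. *Sesn2* had means of 0.268 and 0.0813. In the energy and stress branch, which acts in part through TSC2, the AMPK subunit gene *Prkab1* had means of 13.1 and 9.18 and *Prkaa1* of 2.94 and 3.29. *Ddit4l*, a relative of *Ddit4* and like it an inhibitor of mTORC1, had means of 1.59 in *Mfn1*-/- oocytes against 0.287 in WT, a log2 fold change of 2.13, while *Ddit4* itself had means of 0.867 and 0.717. The genes of the list that differed most between the genotypes were thus not among the 8 genes from *Pdpk1* to *Rptor*.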

How the data were processed

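Oocyte libraries (3 *Mfn1*-/-, 4 WT) were made with Smart-Seq2 poly(A) amplification and Nextera XT, an unstranded kit, and sequenced as 75-base paired-end reads. The authors used Cutadapt and the FASTX-Toolkit for trimming and filtering, STAR for alignment (GRCm38/mm10) and DESeq2 for the comparison. The annotation and the counting settings are not given in the sources used here. The deposited signal is the average normalized count in each genotype, with 3 significant digits, and a sum over libraries that equals 3 times the *Mfn1*-/- and 4 times the WT mean within 1% in 100% of genes. The table also holds the authors' ratio, signed fold change, p-value and step-up FDR of *Mfn1*-/- against WT, which were not used. There were 0 unused columns of single samples.

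The log2 fold change was computed from the genotype means with a pseudocount of 0.1, thresholds of 1.5-fold and 2-fold apply to it, and levels over the 7 libraries weight the means by 3 and 4. Genes of like level lie within 2-fold of a gene's mean. The code was tested on simulated data. Positions, lengths and transcripts were from GENCODE M21, in which 21895 gene names were found once. *Castor1* and *Castor2* were matched by their older symbols, and 6 genes of the pathway list had no values under the names looked up. Transcripts were compared with blastn 2.17.0 and by stretches of 75 bases. The code used pandas 2.3.3 and numpy 2.4.6 in Python 3.11.15, with Biopython for the alignment of *Akt2* with *Akt2-ps* and matplotlib 3.10.9 for plots.

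The 8 genes, the pathway and marker lists and the rule for naming genes were chosen with earlier results of these data known. The rule took the 8 genes, *Mfn1*, *Foxo3*, *Rictor*, *Rps6kb1*, *Kit* and others not reported here, and in each role the genes past 2-fold, the highest and lowest fold change (mean of at least 1) and the highest level. *Pik3ca*, *Pik3r1*, *Pik3r2*, *Pik3r3*, *Mlst8*, *Rps6kb2*, *Ddit4*, *Ddit4l*, *Sesn2*, *Akt2-ps* and *Pkd1* were named after their values were seen. Alternatives were pseudocounts of 0.01, 1 and none, minimum means of none, 0.1 and 5, subtraction of the median and equal sums. The subtraction of 0.01 and the joining of *Akt2* with *Akt2-ps* were chosen after seeing the data.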

Additional observations from a re-analysis of the deposited data

How the results depend on the processing

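*Pdpk1*, *Tsc2* and *Mtor* were lower and *Rheb* was higher in *Mfn1*-/- oocytes under every pseudocount and scaling tried. The median log2 fold change that was subtracted was that of all genes with a mean of at least 1. Subtracting it gave values below 0 for *Akt1* (-0.10), *Akt2* (-0.049), *Tsc1* (-0.10) and *Rptor* (-0.020). It left 1 of the 8 genes higher, with a median of -0.10. For the pathway list with a mean of at least 1 it gave a median of 0.10, with 1 gene past 2-fold. Scaling to the same sum gave values below 0 for *Akt1* (-0.062) and *Tsc1* (-0.036), left 3 of the 8 genes higher with a median of -0.049, and gave a list median of 0.14 with 1 gene past 2-fold. A pseudocount of 1 also left 1 list gene past 2-fold. Subtracting 0.01 from each mean put 1 of the 8 genes, *Rptor*, past 1.5-fold. With no minimum mean, 64 of 97 list genes were higher, beside 56.7% of all genes, and the median was 0.056. Past 2-fold were 4 of the 97, beside 1749 of all 22877 genes. With a minimum of 0.1, 43 of 70 were higher, beside 59.9% of all such genes, and the median was 0.057. Past 2-fold were 4 of the 70, beside 11.5% of all such genes. With a minimum of 5, 11 list genes were higher and 1 was past 2-fold, and no share of all genes was counted. The cause was not tested where a rescaling changed a direction. Over all alternatives *Rptor* had the widest range of log2 fold changes of the 8 genes, from -0.020 to 0.70.

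No paired analysis was possible because the table gives 1 mean per genotype, and for the same reason leaving out a library was not run. The depth of each library is unknown, and the precision of the means is not given, which matters most for the lowest of the 8 genes, *Rptor*, *Akt2* and *Mtor*.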
